A study of Drosophila melanogaster with 39 samples.

Results

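Heads of shocked flies with a Low place preference were compared with heads of shocked flies with a High place preference, the 2 extreme classes of the shocked animals. The comparison held 15 of the 37 libraries with counts, 9 shocked Low and 6 shocked High, and each library was made from the head of a single fly. All flies were adult males of Drosophila melanogaster, and the stated genotype, Cantonized w1118, was shared by every group of the study. The labels describe shocks of 60 V for 5 min, a behavioural test of place preference at 1.5 h and freezing at 2.5 h. That text is the same for naive samples, so the titles alone say which flies were shocked. Shocked Mid (8 heads), naive High (7) and naive Mid (7) were used only to place the values of the same genes. There was no naive Low group among the labelled samples, and how the preference classes were bounded was not given in the sources used. The class of a fly was read after the shock, so the comparison is between flies of 1 treatment sorted by behaviour, and the preference of each fly before the shock is not given. Of 8 samples labelled shocked High, 2 had no column of counts and were not analysed here.

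A fly that has been shocked can learn to stay away from the place where it was punished. Learning of this kind in flies depends on dopamine neurons that signal punishment to the mushroom body, and on cyclic AMP signalling through the adenylyl cyclase rutabaga and the phosphodiesterase dunce. Octopamine and serotonin set arousal and the readiness to move. A fly head also holds compound eyes, antennae, glia, fat body, blood cells and the muscles of the mouthparts, so its RNA reports on the senses, on metabolism and on immunity as well as on neurons.

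The libraries held 5010301 to 9173031 counts, with 11399 to 12136 genes detected, and the fewest counts were in shocked Low 7. Pairs of libraries of 1 group differed by a chi-square per gene of 9.17 to 97.0 over 51 pairs, far above sampling noise. The male dosage compensation RNA roX1 was between 988 and 2236 CPM (counts scaled to a common library total) in all 15 heads, and w was between 0 and 2.71 CPM. The rhodopsin gene ninaE, which encodes the main visual pigment of the eye, was the check of the tissue and lay between 35273 and 49744 CPM. The neuronal RNA-binding protein gene elav lay between 81.3 and 183 CPM. Shocked High 3 stood apart: it had the lowest elav level and the lowest weight, 0.387, when library quality was estimated, against 0.663 to 1.37 for the other 14. Shocked High 2 stood apart in the antennal genes described below. List medians are given below with their range when each head was left out in turn.

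No gene passed the test between shocked Low and shocked High heads. Of 10272 genes tested, 0 were higher and 0 were lower at an adjusted p under 0.05 by the quasi-likelihood test of edgeR after Benjamini-Hochberg adjustment, a share of 0%. DESeq2 and limma with quality weights also called 0. The smallest adjusted p was 0.998. At an unadjusted p under 0.05 there were 452 genes (4.40%), of which 248 were higher (2.41%) and 204 were lower (1.99%) in shocked Low heads. A threshold of 0.05 over 10272 genes corresponds to 514. At an unadjusted p under 0.01 there were 81, where the threshold corresponds to 103. Every gene and list below is therefore given as a value that did not pass.

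The data bounded the size of the differences for most genes. Log2 fold changes had a median standard error (SE) of 0.13 over all genes, and their median was 0.01. For 9081 of 10272 genes (88.4%) the whole 95% interval of the fold change lay within 2-fold in either direction, and for 7526 (73.3%) it lay within 1.5-fold. Precision followed the level of the gene. Within 2-fold lay 98.4% of 2027 genes above 100 CPM, 97.4% of 5522 genes between 10 and 100 CPM and 83.6% of 1893 genes between 2 and 10 CPM. Below 2 CPM the share was 15.2% of 830 genes, so for most of the weakest genes the interval did not bound the difference to 2-fold. A count of 0 in a library allows a level of up to 0.309 to 0.61 CPM, taking 3 counts as the limit, and this covers counting error only.

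**Figure D1:**
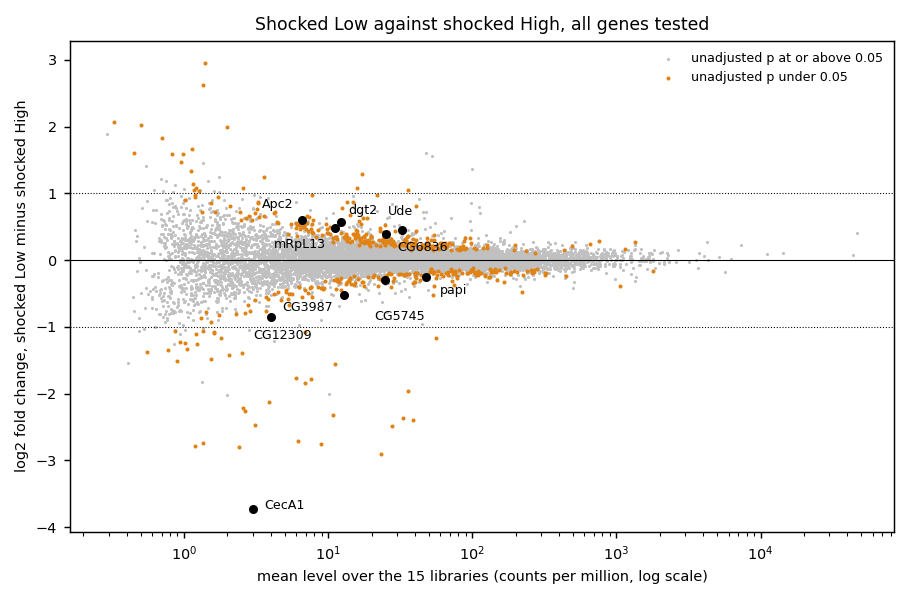
Log2 fold change of shocked Low minus shocked High (vertical axis) against the mean level over the 15 libraries in CPM (horizontal log axis) for the 10272 genes tested, with dotted lines at 2-fold. Orange points are the 452 genes with an unadjusted p under 0.05, black points are the 10 named genes, none passed the adjusted threshold, and a group of orange points at 2 or more log2 units lower in shocked Low includes CecA1.

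Of the genes higher in shocked Low heads, dgt2 (FBgn0032390, dm6 chromosome 2L, 11989936 to 11990979) had the smallest unadjusted p. It encodes a subunit of augmin, which nucleates spindle microtubules. Its lowest, median and highest levels were 6.87, 9.22 and 12.5 CPM in shocked High and 11.7, 14.1 and 17.8 CPM in shocked Low heads. The groups overlapped in that the highest shocked High head, replicate 4, lay above the lowest shocked Low head, while all 9 shocked Low heads were above the shocked High mean. The means were 9.55 ± 2 CPM (SD, n = 6) and 14.2 ± 1.98 CPM (SD, n = 9), a log2 fold change of 0.58 (SE 0.14). In shocked Mid heads dgt2 averaged 10.1 CPM and in naive High and naive Mid heads 11.5 and 11.4 CPM.

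Ude (FBgn0039226, chromosome 3R, 24797460 to 24799668) encodes a uracil-DNA degrading factor of insects. It lay at 19.7, 28.2 and 31 CPM (lowest, median and highest) in shocked High and at 31.2, 37 and 41.1 CPM in shocked Low heads. Every shocked Low head was above every shocked High head. The log2 fold change was 0.46 (SE 0.12), and the shocked Mid mean of 30.2 CPM lay between. Groups did not overlap for 3 of the 10272 genes (0.0292%). The others, chosen after their values were seen, were CG17996 (FBgn0032595), at 9.40 to 13.2 CPM in shocked High and 13.3 to 17.3 CPM in shocked Low heads, and wun2 (FBgn0041087), at 5.84 to 8.31 and 2.24 to 5.44 CPM. The gene wun2 encodes a lipid phosphate phosphatase known from germ cell migration in the embryo, and it was lower in the shocked Low heads by -0.67 on the log2 scale (SE 0.26).

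Apc2 (FBgn0026598, chromosome 3R, 24163966 to 24168264), part of the complex that destroys beta-catenin in Wingless signalling, lay at 3.25, 5.05 and 7.49 CPM in shocked High and at 5.43, 7.30 and 10.1 CPM in shocked Low heads. Its log2 fold change was 0.59 (SE 0.17), and 3 shocked High heads lay above the lowest shocked Low head. The mitochondrial ribosomal protein gene mRpL13 (FBgn0032720, chromosome 2L, 18858028 to 18859248) lay at 6.87, 8.44 and 12.9 CPM in shocked High and at 8.56, 13.1 and 16.5 CPM in shocked Low heads. Its log2 fold change was 0.48 (SE 0.14), with the groups overlapping between 8.56 and 12.9 CPM. CG6836 (FBgn0036834, chromosome 3L, 18950629 to 18955406) had a log2 fold change of 0.38 (SE 0.11), from 21.4 ± 2.01 CPM (SD, n = 6) to 27.8 ± 4.85 CPM (SD, n = 9). For Apc2, mRpL13 and CG6836 the shocked Mid means were 6.97, 11.6 and 30.3 CPM, nearer to shocked Low than to shocked High.

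Among the lower genes, CG3987 (FBgn0038292, chromosome 3R, 15139958 to 15141715) had the smallest unadjusted p. It lay at 13.3, 15.7 and 18.3 CPM in shocked High and at 8.06, 10.4 and 15.9 CPM in shocked Low heads, a log2 fold change of -0.52 (SE 0.14). Only shocked Low 9, at 15.9 CPM, reached into the shocked High range. The gene papi (FBgn0031401, chromosome 2L, 2220748 to 2225544) encodes a Tudor domain protein of the piRNA pathway. Its log2 fold change was -0.26 (SE 0.08), between 47.9 and 55.8 CPM in shocked High heads and between 38.7 and 49.5 CPM in shocked Low heads. CG5745 (FBgn0038855, chromosome 3R, 21102199 to 21105113), named Tbc1d22 in the Ensembl annotation after a family of regulators of Rab GTPases, averaged 27.8 ± 2.8 CPM (SD, n = 6) in shocked High and 22.6 ± 1.91 CPM (SD, n = 9) in shocked Low heads, and its groups overlapped between 23.2 and 25.6 CPM.

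CG12309 (FBgn0033542, chromosome 2R, 10725270 to 10727272), named CAH13 in the Ensembl annotation after the carbonic anhydrases, lay at 3.72, 5.01 and 7.95 CPM in shocked High and at 1.95, 3.18 and 3.74 CPM in shocked Low heads. The log2 fold change was -0.85 (SE 0.26), and the groups met only at 3.72 and 3.74 CPM. CecA1 (FBgn0000276, chromosome 3R, 30210874 to 30211273), an antibacterial cecropin, had the largest difference of the 10 genes. It lay at 0, 2.60 and 27.9 CPM in shocked High and at 0, 0.143 and 1.63 CPM in shocked Low heads. The log2 fold change was -3.73 (SE 1.07), and the level of 27.9 CPM belonged to shocked High 4 alone.

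**Figure D2:**
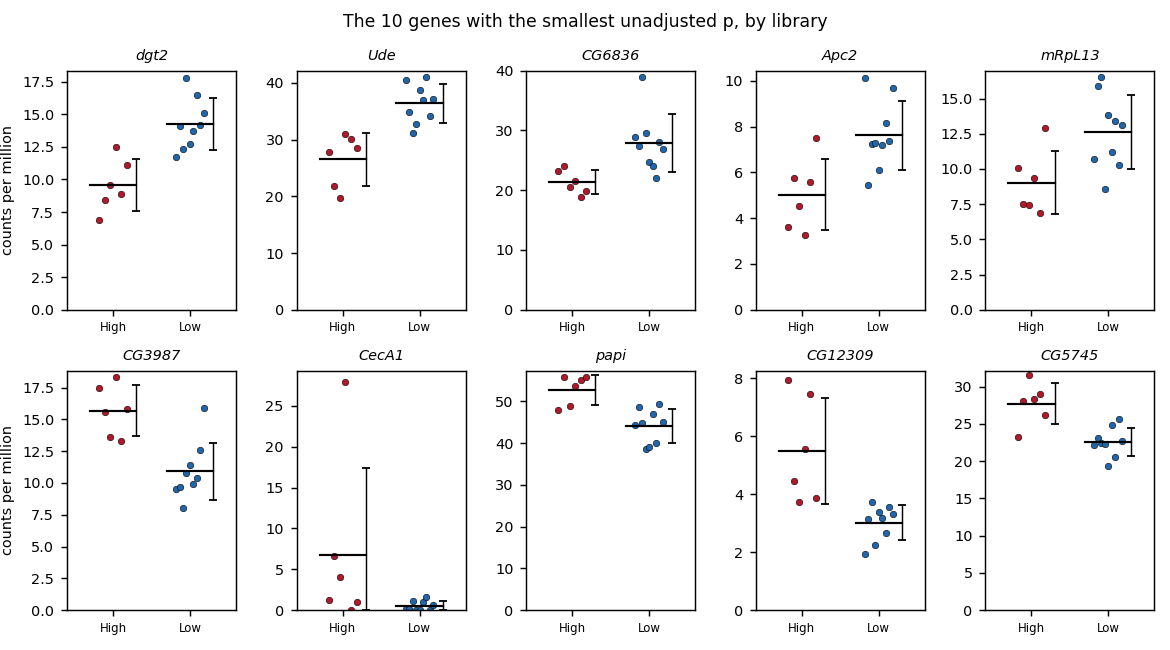
Level in CPM (vertical axis, from 0) of the 10 genes with the smallest unadjusted p in each shocked High (red) and shocked Low (blue) head, with the mean and an error bar of 1 SD that stops at 0. The top row holds the genes higher and the bottom row the genes lower in shocked Low, only Ude has no overlap between groups, and CecA1 is high in 1 shocked High head.

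In the authors' deposited table of the same comparison, which lists 15947 genes, 0 had a q under 0.05 and 12 had a q below 1. The smallest q in the authors' deposited table was 0.108, for Obp49a (FBgn0050052, chromosome 2R, 12690059 to 12690955), with a log2 fold change of -0.49. Obp49a is an odorant-binding protein of taste organs that is needed for the suppression of sweet taste by bitter compounds. In the counts it lay at 209, 263 and 352 CPM in shocked High and at 157, 189 and 218 CPM in shocked Low heads, with all 9 shocked Low heads below the shocked High mean of 267 CPM. The log2 fold change was -0.48 (SE 0.22, adjusted p = 0.998). Naive Mid heads spread more widely than either, at 202 ± 89.4 CPM (SD, n = 7). Over the 10272 genes tested, 9990 (97.3%) had the same sign in the authors' deposited table as in edgeR.

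The members of 32 gene lists were described next by their counts and medians, beside the 53.5% of all tested genes (5493) that had a positive and the 46.5% (4779) that had a negative log2 fold change. No member of any list passed the test. In heads, fewer cells of a type and less RNA per cell cannot be told apart, so a list of cell type markers gives a level of RNA and not a number of cells. Lists whose members follow each other from head to head can lean to 1 side through a few heads, so each list median is followed by its lowest and highest value when 1 of the 15 heads was left out. Of the 32 medians, 20 kept their sign in all 15 of these fits and 12 did not.

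**Figure D3:**
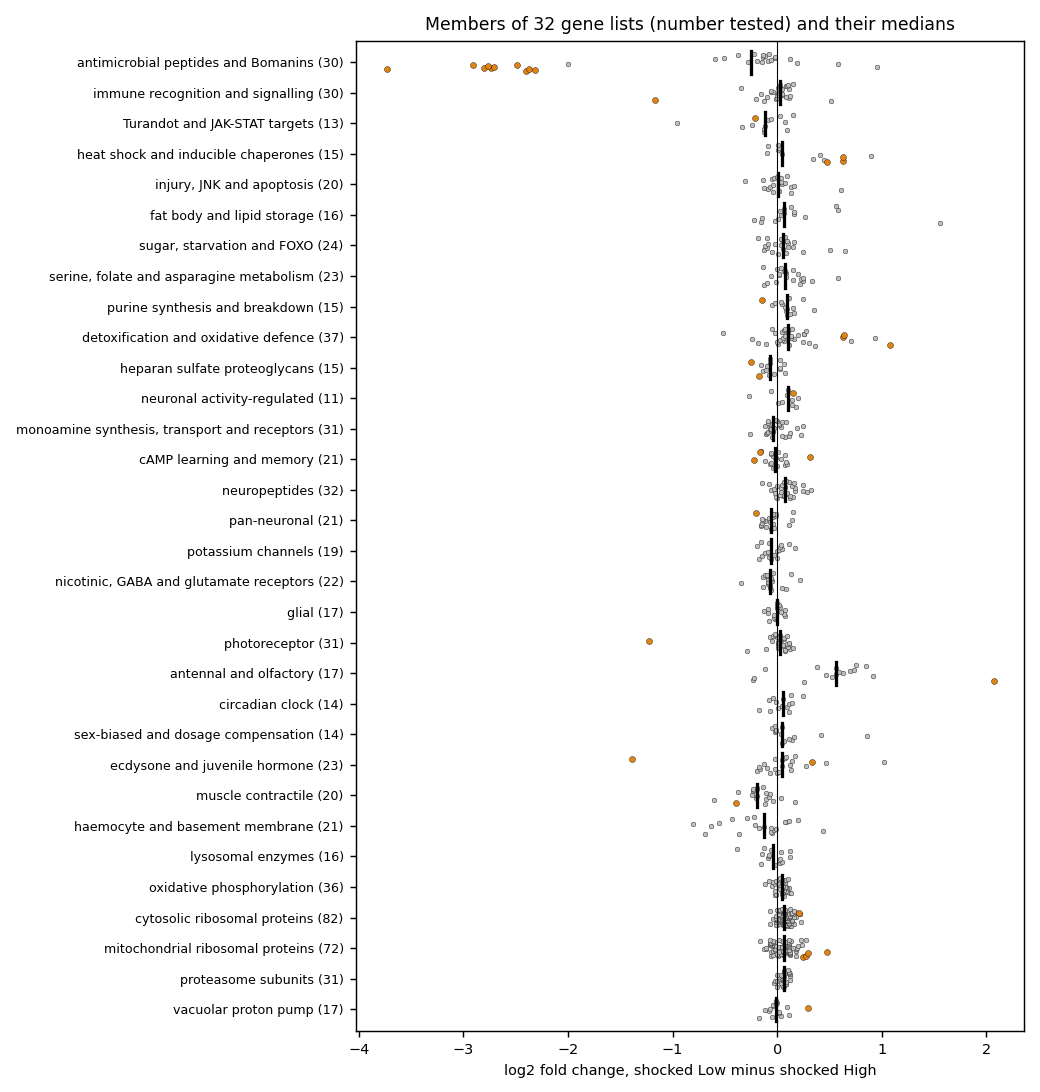
Log2 fold change, shocked Low minus shocked High (horizontal axis), of each tested member of 32 gene lists, with the number of members tested in parentheses and a black bar at the list median. Orange members had an unadjusted p under 0.05, no member passed the adjusted threshold, and the medians farthest from 0 are those of the antennal (0.56), antimicrobial (-0.25) and muscle (-0.20) lists.

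Antimicrobial peptides and Bomanins are small secreted proteins that fat body and blood cells make through the Toll and Imd pathways. Of 30 tested, 26 were lower and 4 higher in shocked Low heads, with a median log2 fold change of -0.25 (-0.48 without shocked Low 6 to 0.01 without shocked High 3). The 10 members with an unadjusted p under 0.05, all lower, were the 4 cecropins CecA1, CecA2, CecB and CecC, the 3 attacins AttA, AttB and AttC, both diptericins Dpt and DptB, and the drosocin gene Dro. They are chiefly targets of the Imd pathway. AttA lay at 16, 92.3, 69.8, 243, 3 and 25.5 CPM in shocked High 1 to 6 and between 3.20 and 29.9 CPM in the 9 shocked Low heads. DptB lay at 7.11, 80.6, 31.7, 147, 1.14 and 24.9 CPM in shocked High 1 to 6 and between 0.715 and 15 CPM in shocked Low heads. All 10 genes were highest in shocked High 4, with shocked High 2 next in each, while shocked High 5 lay among the low heads, at 3 CPM for AttA and 1.14 CPM for DptB. The log2 fold changes of AttA and DptB were -2.40 (SE 0.84) and -2.91 (SE 1.07).

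The lower levels of these peptides rested on few heads. Without shocked High 4, 1 of the 30 had an unadjusted p under 0.05, with a median of -0.37. Over all genes tested it was 388 of 10331 in that fit, and 452 of 10272 in the reported fit. Without shocked High 3 the median was 0.01, with 16 members higher and 14 lower, so the sign of the median changed. With limma and quality weights none of the 30 had an unadjusted p under 0.05, beside 705 of 10272 genes, and the median was -0.10. With a replicate block by the title numbers, 11 of 27 tested members were higher and 16 lower, with a median of -0.06. With a block by the library-name numbers, added after seeing the data, 18 were higher and 9 lower. The median of that fit was 0.26, so its sign changed there too. The defensin gene Def had its highest level in another head, shocked Low 3, at 148 CPM. It lay at 46.1 CPM in shocked High 4 and at most 10.9 CPM in the other 13 heads. AttA and AttB are near-identical copies, as are CecA1 and CecA2, so reads could be split between them or lost by the mapping filter. The levels of naive High and naive Mid heads, 38.6 ± 34.5 and 39.7 ± 48.8 CPM for AttA (SD, n = 7 each), lay beside 75 ± 89.1 CPM in shocked High heads (SD, n = 6). The AttA mean of the 8 shocked Mid heads was 33.4 ± 35.9 CPM (SD). Of the 21 members of the haemocyte list described below, 6 were highest in shocked High 4, 5 in shocked High 3 and 4 in shocked Low 6. The mean log2 CPM of that list was highest in shocked Low 6, at 5.32 against 5.22 in shocked High 4. In shocked Low 6 AttA was at 27.5 CPM. The part of the haemocyte list in the result was not tested.

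Receptors and signalling proteins of the same immune pathways were near 0. Of 30 tested, 20 were higher and 10 lower, with a median of 0.02 (-0.05 without shocked High 5 to 0.08 without shocked High 3). The count turned to 10 higher and 20 lower without shocked High 5, to 11 and 19 without shocked High 2, and to 14 and 16 without shocked Low 1 or shocked Low 7, so it gives no steady direction. The only member with an unadjusted p under 0.05 was PGRP-SB1, a secreted peptidoglycan recognition protein, at 9.30, 80.3 and 194 CPM in shocked High and 11.2, 34.8 and 71.7 CPM in shocked Low heads (log2 fold change -1.16, SE 0.57). Its highest head was again shocked High 4. The Toll adaptor tub had a log2 fold change of 0.15 (SE 0.10).

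Turandot genes, which encode secreted stress proteins under JAK-STAT control, varied widely between heads of 1 class. TotA lay at 533, 3896 and 8116 CPM in shocked High and at 200, 3891 and 10424 CPM in shocked Low heads, so the medians nearly coincided within wide ranges. TotA, TotC and TotM were all highest in shocked Low 4 and lowest in shocked Low 8. Of the 13 members tested, 9 were lower and 4 higher, with a median of -0.11 (-0.53 without shocked Low 4 to 0.13 without shocked High 6). The median was also above 0, at 0.02, without shocked Low 5 and without shocked Low 8. The Janus kinase gene hop, the upstream kinase of the pathway, was tight by comparison, at 38.4 ± 2.18 CPM (SD, n = 6) in shocked High and 33.2 ± 3.38 CPM (SD, n = 9) in shocked Low heads. Its log2 fold change was -0.21 (SE 0.08, unadjusted p = 0.0121). Diedel, a secreted immune modulator, ranged from 0.135 to 208 CPM in shocked High and from 0.389 to 129 CPM in shocked Low heads.

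Heat shock and inducible chaperone genes leaned higher in shocked Low heads, with 13 of 15 tested higher and a median of 0.04 (0.03 without shocked Low 6 to 0.10 without shocked High 3). The small heat shock genes Hsp23 and Hsp26, whose products hold unfolded proteins, and the inducible Hsp68 had an unadjusted p under 0.05. Hsp26 lay at 7.95, 13.4 and 19 CPM in shocked High and at 12.3, 14.6 and 54.3 CPM in shocked Low heads (log2 fold change 0.63, SE 0.26). Shocked Low 6 held the highest level of Hsp23, Hsp26 and Hsp68, at 56.8, 54.3 and 60.5 CPM. Without shocked Low 6, 1 of 14 tested members had an unadjusted p under 0.05. Over all genes tested it was 452 of 10272 in the reported fit and 463 of 10258 without shocked Low 6. Genes of injury, JNK signalling and apoptosis divided evenly, 10 higher and 10 lower of 20, with a median of 0.0050 (-0.03 without shocked Low 9 to 0.05 without shocked High 6). Among them the engulfment receptor gene drpr had a log2 fold change of -0.14 (SE 0.07) and the apoptosis gene rpr one of 0.61 (SE 0.42).

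Detoxification and oxidative defence genes were higher for 30 of 37 tested, with a median of 0.10 (0.05 without shocked Low 1 to 0.16 without shocked High 3). The number with an unadjusted p under 0.05 was 3, and it was 7 without shocked High 3 and 2 without shocked Low 1. Over all genes tested it was 452 of 10272, 733 of 10335 and 443 of 10262 in the same order. The cytochrome P450 gene Cyp6a8, known for its induction by foreign compounds, lay at 3.08, 6.77 and 24.7 CPM in shocked High and at 6.29, 16.4 and 43 CPM in shocked Low heads. Its log2 fold change was 1.08 (SE 0.38), with shocked Low 1 and shocked Low 6 the highest heads and shocked High 3 the highest of its group. The glutathione S-transferase gene GstE7 had a log2 fold change of 0.64 (SE 0.29). Shocked Low 6 was the highest of the 15 heads for 11 of the 37 genes and shocked Low 5 the lowest for 10. The levels of both genes in shocked Mid heads, 20.4 CPM for Cyp6a8 and 9.36 CPM for GstE7, were close to the shocked Low means of 20 and 8.58 CPM.

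Metabolic genes of the fat body were widely spread in both classes. Lsp2 (FBgn0002565, chromosome 3L, 12129393 to 12131869), a larval storage protein that the adult head fat body also makes, lay at 5.69, 18.7 and 53.7 CPM in shocked High and at 6.10, 50.7 and 201 CPM in shocked Low heads. The log2 fold change of 1.55 (SE 0.81) had a 95% interval from -0.09 to 3.19. Of the 16 fat body and lipid storage genes tested, 12 were higher, with a median of 0.07 (0.0050 without shocked High 5 to 0.16 without shocked High 3). Without shocked High 5 the list had 8 higher and 8 lower, and without shocked High 3 it had 14 higher. The glycine methyltransferase gene Gnmt, which consumes S-adenosylmethionine, had a log2 fold change of 0.58 (SE 0.58). Genes of sugar metabolism, starvation and FOXO had 16 of 24 higher and a median of 0.05 (-0.0035 without shocked High 5 to 0.09 without shocked High 6), with the insulin pathway kinase gene Akt1 at -0.18 (SE 0.10) and the pyruvate kinase gene PyK at 0.10 (SE 0.07).

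Serine, folate and asparagine metabolism had 18 of 23 members higher, with a median of 0.08 (0.02 without shocked High 5 to 0.12 without shocked High 3). Purine metabolism had 12 of 15 higher, with a median of 0.09 (0.06 without shocked Low 4 to 0.18 without shocked High 3). CG6287, a homolog of the phosphoglycerate dehydrogenase that opens serine synthesis, was at 113, 121 and 209 CPM in shocked High and 128, 171 and 214 CPM in shocked Low heads (log2 fold change 0.33, SE 0.20). The AMP deaminase gene AMPdeam, which opens the breakdown of adenylate, went the other way at -0.15 (SE 0.07, unadjusted p = 0.0464), and the adenylosuccinate synthetase gene AdSS was at 0.09 (SE 0.08). Shocked High 3 held the highest level of 8 of the 23 serine and folate genes, against the direction of the list. Lysosomal enzyme genes had a median of -0.04 (-0.09 without shocked High 1 to 0.06 without shocked High 3), with the cholesterol transporter gene Npc1a at -0.09 (SE 0.06) and the hexosaminidase gene Hexo1 at 0.12 (SE 0.08).

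Heparan sulfate proteoglycans carry growth factors at the cell surface, and their sulfation sets which they bind. Of 15 genes tested, 10 were lower in shocked Low heads, with a median of -0.07 (-0.12 without shocked Low 9 to -0.05 without shocked Low 3). Sulf1, an extracellular enzyme that removes sulfate from heparan sulfate, lay at 86.3, 105 and 114 CPM in shocked High and at 80.3, 89.9 and 103 CPM in shocked Low heads, a log2 fold change of -0.18 (SE 0.07, unadjusted p = 0.0123). The shocked Mid mean of 102 CPM was near the shocked High mean of 103 CPM, the naive High and naive Mid means were 85.2 and 83 CPM, and the shocked Low mean of 91.4 CPM lay between. The sulfotransferase gene Hs3st-B was at -0.25 (SE 0.11).

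The lists most closely tied to learning and to arousal had narrow intervals, which was not particular to them. Over all genes tested 88.4% had an interval within 2-fold. All tested members did so in the potassium channel (19), glial (17), clock (14) and oxidative phosphorylation (36) lists as well. Of 21 genes of cyclic AMP signalling and memory, 14 were lower and 7 higher, with a median of -0.02, and the 95% interval of all 21 lay within 2-fold. This count turned to 9 lower and 12 higher without shocked High 1 or shocked High 6, with medians of 0.0065 and 0.02. Without shocked High 3, which was the lowest of 15 heads for 11 of the 21 genes, 16 were lower and the median was -0.11. Nf1, a Ras regulator needed for learning in flies, lay between 105 and 126 CPM in shocked High and between 79.5 and 113 CPM in shocked Low heads (log2 fold change -0.22, SE 0.09, unadjusted p = 0.0193). The integrin gene scb, known from the memory mutant Volado, was at 0.32 (SE 0.14). All 31 monoamine genes, which cover the synthesis, transport and receptors of dopamine, serotonin, octopamine and tyramine, also had intervals within 2-fold, with 19 lower, 12 higher and a median of -0.04 (-0.06 without shocked Low 8 to -0.01 without shocked Low 3). The vesicular monoamine transporter gene Vmat averaged 335 ± 24 CPM (SD, n = 6) in shocked High and 346 ± 35.8 CPM (SD, n = 9) in shocked Low heads. The octopamine receptor gene Octbeta2R was at 0.19 (SE 0.11), and Tdc2, which makes tyramine for octopamine synthesis, at 0.23 (SE 0.13).

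Activity-regulated genes, which neurons switch on after firing, had 9 of 11 members higher and a median of 0.10 (0.06 without shocked Low 9 to 0.15 without shocked Low 5). The nuclear receptor gene Hr38 lay at 39.4, 52.5 and 57.7 CPM in shocked High and at 41.1, 56.4 and 69.3 CPM in shocked Low heads, and the transcription factor gene sr at 16.9, 23.5 and 29.8 and at 20.3, 24.9 and 35 CPM. Their log2 fold changes were 0.18 (SE 0.18) and 0.14 (SE 0.14), with the groups overlapping for both. CG8910 had an unadjusted p of 0.0472 at 0.15 (SE 0.07), and CG17778 was at 0.14 (SE 0.11). Neuropeptide genes were higher for 24 of 32, with a median of 0.08 (0.04 without shocked Low 3 to 0.12 without shocked Low 6). Shocked Low 3 was the highest of 15 heads for 13 of them and shocked High 3 the lowest for 10. The clock neuropeptide gene Pdf averaged 149 ± 27.5 CPM (SD, n = 6) in shocked High and 177 ± 32.3 CPM (SD, n = 9) in shocked Low heads, and the insulin-like peptide gene Ilp2 146 ± 16 and 173 ± 41.6 CPM. Ilp3, made in the same brain cells as Ilp2, had a log2 fold change of -0.06 (SE 0.36).

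Pan-neuronal genes leaned lower in shocked Low heads, 18 of 21, with a median of -0.06 (-0.16 without shocked High 3 to -0.02 without shocked High 1), and all 21 intervals lay within 2-fold. The transcription factor gene onecut, at 222, 279 and 347 CPM in shocked High and 196, 253 and 291 CPM in shocked Low heads, had an unadjusted p of 0.0406 (log2 fold change -0.20, SE 0.09). The active zone gene brp was at -0.16 (SE 0.10). Shocked High 3 was the lowest of 15 heads for 14 of the 21 genes, and without it all 21 were lower in shocked Low heads, with a median of -0.16 and 6 genes at an unadjusted p under 0.05. Leaving out a head this low in its group lowers the fold changes of the list by construction. In that fit 733 of all 10335 genes tested had an unadjusted p under 0.05. Potassium channel genes, with 13 of 19 lower and a median of -0.06 (-0.11 without shocked High 3 to -0.02 without shocked High 6), and nicotinic, GABA and glutamate receptor genes, with 18 of 22 lower and a median of -0.07 (-0.14 without shocked High 3 to -0.04 without shocked Low 3), leaned the same way. The largest potassium channel difference by p was that of Shab, a delayed rectifier, at -0.17 (SE 0.10), followed by qvr, a channel modulator that promotes sleep, at -0.16 (SE 0.10). The NMDA receptor gene Nmdar1 was at -0.12 (SE 0.07) and the glutamate receptor gene GluRIA at 0.14 (SE 0.09). Shocked High 3 was lowest for 10 of the 19 channel genes and for 10 of the 22 receptor genes.

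Glial genes had 10 of 17 lower and a median of -0.0045 (-0.05 without shocked Low 1 to 0.05 without shocked Low 5), with the glutamine synthetase gene Gs2 at 0.07 (SE 0.08) and the G protein regulator gene loco at -0.09 (SE 0.10). Photoreceptor genes had 23 of 31 higher and a median of 0.03 (-0.0061 without shocked High 3 to 0.05 without shocked High 1), and shocked Low 6 was the lowest of 15 heads for 11 of them. The ultraviolet rhodopsin gene Rh4 was at 0.12 (SE 0.09), and ninaD, a scavenger receptor for the uptake of carotenoids, was at -1.23 (SE 0.51). The ninaD levels were near the counting limit, at 0.858 to 1.69 CPM in shocked High and 0 to 1.34 CPM in shocked Low heads.

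Antennal and olfactory genes had the median farthest from 0 of the 32 lists, 0.56, with 14 of 17 tested genes higher in shocked Low heads. These genes encode odorant-binding proteins, secreted around olfactory neurons, and olfactory receptors. Obp83a lay at 231, 3.93, 499, 152, 97.4 and 67.6 CPM in shocked High 1 to 6 and at 57.2, 316 and 412 CPM (lowest, median and highest) in shocked Low heads. The odorant-binding protein gene lush, needed for the sensing of a male pheromone, lay at 50, 2.66, 84.5, 30.2, 21.7 and 22.2 CPM in shocked High 1 to 6 and at 11.4, 51.6 and 86.2 CPM in shocked Low heads. Shocked High 2 was far below the other heads for both genes, shocked High 3 was high, and shocked Low 2 and 7 were the low heads of their group. The log2 fold changes were 0.59 (SE 0.52) for Obp83a and 0.63 (SE 0.40) for lush, and the other heads of both groups overlapped.

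Shocked High 2 was the lowest of 15 heads for 14 of the 17 antennal genes. The mean log2 CPM of the list was 0.91 in shocked High 2 and 2.76 to 4.85 in the other 14 heads. Without it the median fold change was 0.30, without shocked High 3 it was 1.01 with 12 genes at an unadjusted p under 0.05, and with both left out it was 0.74. Over all genes, 733 of 10335 tested without shocked High 3 had an unadjusted p under 0.05. The co-receptor gene Orco was at 0.25 (SE 0.37), with 4.89 CPM in shocked High 2. Only Ir8a, a co-receptor of ionotropic receptors, had an unadjusted p under 0.05 (0.0197), at 0 to 0.532 CPM in shocked High and 0 to 1.44 CPM in shocked Low heads, levels near the counting limit. CG6499, named Amt in the Ensembl annotation for an ammonium transporter, was at 0.75 (SE 0.44).

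**Figure D4:**
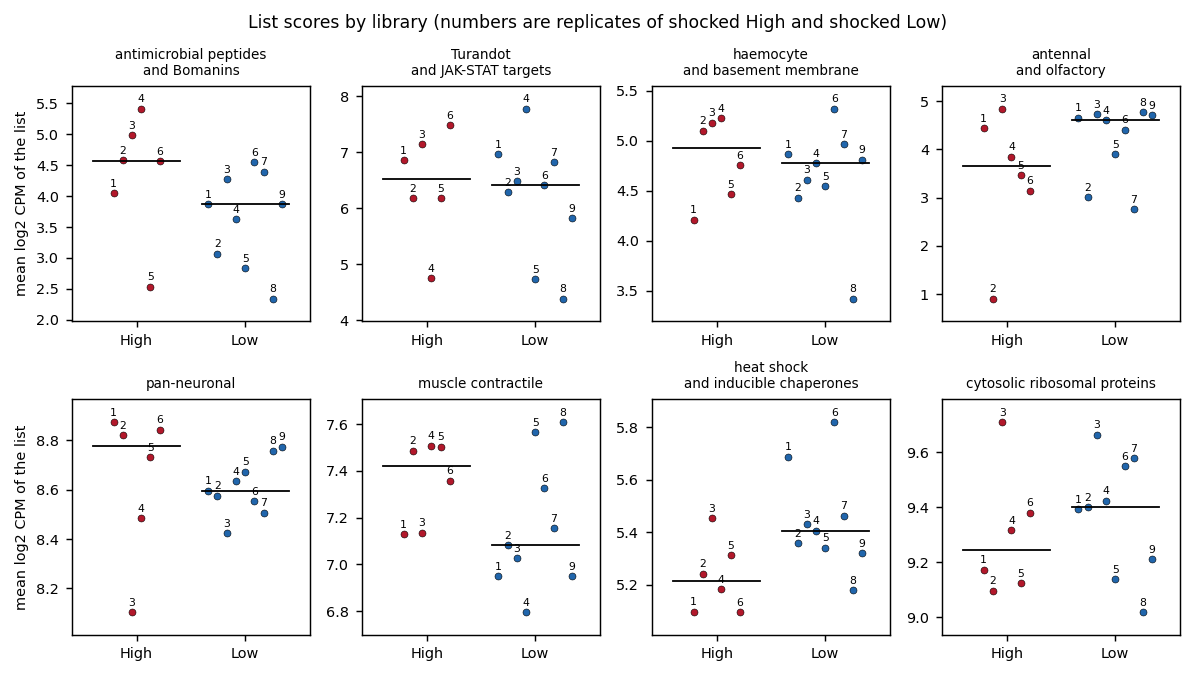
Mean log2 CPM of 8 gene lists (vertical axis, a separate range in each panel) in each shocked High (red) and shocked Low (blue) head, with replicate numbers above the points and black lines at the group medians. Shocked High 2 lies at 0.91 on the antennal list, shocked High 3 is lowest on the pan-neuronal and highest on the cytosolic ribosomal list, shocked Low 8 is lowest on the antimicrobial, Turandot, haemocyte and ribosomal lists, and the groups overlap in every panel.

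Muscle contractile genes were lower in shocked Low heads for 18 of 20 tested, with a median of -0.20. The actin gene Act57B lay at 913, 1286 and 1569 CPM in shocked High and at 693, 844 and 1568 CPM in shocked Low heads (log2 fold change -0.39, SE 0.18, unadjusted p = 0.0366). The titin-like gene sls was at -0.23 (SE 0.13). On the mean log2 CPM of the list, shocked Low 5 and 8 were the highest of the 15 heads. The median kept its sign in all 23 alternatives, between -0.25 and -0.10 (the latter without shocked High 2), and no member passed in any of them.

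The haemocyte and basement membrane list holds genes of blood cells, among them those that engulf microbes and debris, and genes of the basement membrane. Of 21 tested, 16 were lower, with a median of -0.13 (-0.23 without shocked High 1 to -0.05 without shocked High 3). It was 0.02 with shocked High 2 and 3 both left out. The clotting factor gene Hml lay at 35.9, 103 and 166 CPM in shocked High and at 8.99, 88.8 and 117 CPM in shocked Low heads, and the phagocytosis receptor gene NimC1 at 1.93, 4.79 and 7.86 CPM and at 0, 3.27 and 5.69 CPM. Shocked Low 8 was the lowest of 15 heads for 13 of the 21 genes, with 8.99 CPM of Hml and 0 of NimC1. The log2 fold changes were -0.37 (SE 0.37) for Hml, -0.69 (SE 0.35) for NimC1 and -0.22 (SE 0.12) for PPO2, a prophenoloxidase of crystal cells.

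Circadian clock genes had a median of 0.05 (0.0063 without shocked High 3 to 0.08 without shocked High 1), with 9 of 14 higher and the photoreceptor gene of the clock, cry, at 0.14 (SE 0.09). Sex-biased and dosage compensation genes also had 9 of 14 higher, with a median of 0.04 (-0.0095 without shocked High 3 to 0.08 without shocked High 6). Among them sxe2, a lipase gene of the male head fat body, was at 0.42 (SE 0.21) and the yolk protein gene Yp3 at 0.16 (SE 0.09). Of 23 ecdysone and juvenile hormone genes 13 were higher, with a median of 0.04 (-0.03 without shocked High 3 to 0.07 without shocked Low 5). Jheh1, a juvenile hormone epoxide hydrolase gene, was at 0.34 (SE 0.17), and shd, which makes the active form of ecdysone, at -1.39 (SE 0.66) with levels of at most 1.33 CPM.

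Genes of the cell's basic machinery differed by small amounts. Cytosolic ribosomal protein genes were higher in shocked Low heads for 71 of 82, with a median of 0.06, and every interval lay within 2-fold. RpL34b lay at 413, 435 and 546 CPM in shocked High and 441, 512 and 632 CPM in shocked Low heads (log2 fold change 0.21, SE 0.10), and RpL23 was at 0.23 (SE 0.14). Shocked High 3 was the highest of 15 heads for 48 of the 82 genes and shocked Low 8 the lowest for 51. Without shocked High 3, 81 of 82 were higher with a median of 0.17, and without shocked High 2 the median was 0.01. Mitochondrial ribosomal protein genes were higher for 49 of 72, with a median of 0.06 (0.03 without shocked Low 3 to 0.07 without shocked Low 6), and mRpL4 was at 0.25 (SE 0.09). Proteasome genes were higher for 26 of 31, with a median of 0.06 (0.03 without shocked High 2 to 0.11 without shocked High 3) and Rpt4 and Rpn13 at 0.13 (SE 0.09) and 0.11 (SE 0.09). Oxidative phosphorylation genes were higher for 26 of 36, with a median of 0.04 (0.0034 without shocked High 1 to 0.08 without shocked High 3), and the complex I genes CG5703 and NDUFS3 were at 0.13 (SE 0.08) and 0.12 (SE 0.08). The vacuolar proton pump list had a median of -0.01 (-0.04 without shocked High 4 to 0.00024 without shocked Low 7), with the subunit genes Vha36-3 at 0.30 (SE 0.13) and Vha13 at 0.11 (SE 0.06). The same lists were also counted between the naive classes, which share no library with these. The share of all genes higher in naive High heads is not given, so these counts are not read as a lean. Higher in naive High than in naive Mid heads were 81 of 82 cytosolic ribosomal genes (median 0.09) and 36 of 36 oxidative phosphorylation genes (median 0.09). The counts were 24 of 31 for proteasome, 39 of 72 for mitochondrial ribosomal and 9 of 17 for proton pump genes.

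The shocked Mid class, by its name between these extremes, was set beside them last. The comparisons of shocked Low and of shocked High with shocked Mid share the Low and the High libraries with the main comparison and the Mid libraries with each other, so their values are set side by side only. Of 10272 genes, 2 (0.0195%) were lower in shocked Low than in shocked Mid heads and 7 (0.0681%) were lower in shocked High than in shocked Mid heads, and none was higher, in edgeR. At an unadjusted p under 0.05 there were 1436 (14.0%) and 1797 (17.5%), beside 4.40% between Low and High. Between naive High and naive Mid heads, which share no library with the shocked classes, 0 genes passed, with 317 (3.09%) at an unadjusted p under 0.05. In the authors' deposited table, which lists 15947 genes, there were 525 genes that had a q under 0.05 between shocked High and shocked Mid and 195 between shocked Mid and shocked Low. Between naive Mid and naive High there were 2. Why these counts are larger than those of edgeR was not tested.

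Nmdmc (FBgn0010222, chromosome 3R, 9042508 to 9050555), a mitochondrial enzyme of folate metabolism, was lower in both extremes. Its log2 fold change was -1.94 for shocked Low (adjusted p = 0.0014) and -1.81 for shocked High (adjusted p = 0.0245) against shocked Mid. It averaged 25 ± 8.75 CPM in shocked Low (SD, n = 9), 27.4 ± 9.93 CPM in shocked High (SD, n = 6) and, in the 8 shocked Mid heads, 95.9 ± 65.2 CPM (SD), with 27.2 and 23.1 CPM in naive Mid and naive High heads. Between Low and High its log2 fold change was -0.13 (95% interval -0.78 to 0.53). Ppt2 (FBgn0032358, chromosome 2L, 11280298 to 11281920), a lysosomal thioesterase, was lower in shocked Low than in shocked Mid heads (log2 fold change -0.54, adjusted p = 0.0471), at 28.5 ± 2.71 CPM (SD, n = 9) and 41.4 ± 7.71 CPM (SD, n = 8). In shocked High heads Ppt2 averaged 31.7 CPM, and the difference between Low and High was -0.15 (95% interval -0.38 to 0.08).

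The other genes lower in shocked High than in shocked Mid heads had shocked Low values between the other classes. Lsp2 averaged 24.3 ± 20 CPM in shocked High (SD, n = 6), 71.5 ± 58.7 CPM in shocked Low (SD, n = 9) and, in shocked Mid, 653 ± 794 CPM (SD, n = 8), with an adjusted p of 0.0245 for High against Mid. The antisense RNA gene CR11538 (chromosome 3L, 12129103 to 12131488) overlaps Lsp2 and followed it, and without a stated strand setting the reads of both cannot be told apart. Pex5, the import receptor of peroxisomes, averaged 33.5, 41.8 and 51.6 CPM in shocked High, Low and Mid heads, and the Low minus High log2 fold change was 0.32 (SE 0.12, unadjusted p = 0.0113). The glucuronosyltransferase gene Ugt35b averaged 36, 42.8 and 61 CPM in the same order, CG16758 233, 282 and 752 CPM, and CG10516 17.4, 20 and 32.5 CPM. The Low minus High log2 fold changes of Ugt35b, CG16758 and CG10516 were 0.25, 0.28 and 0.19, each with a 95% interval that included 0.

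**Figure D5:**
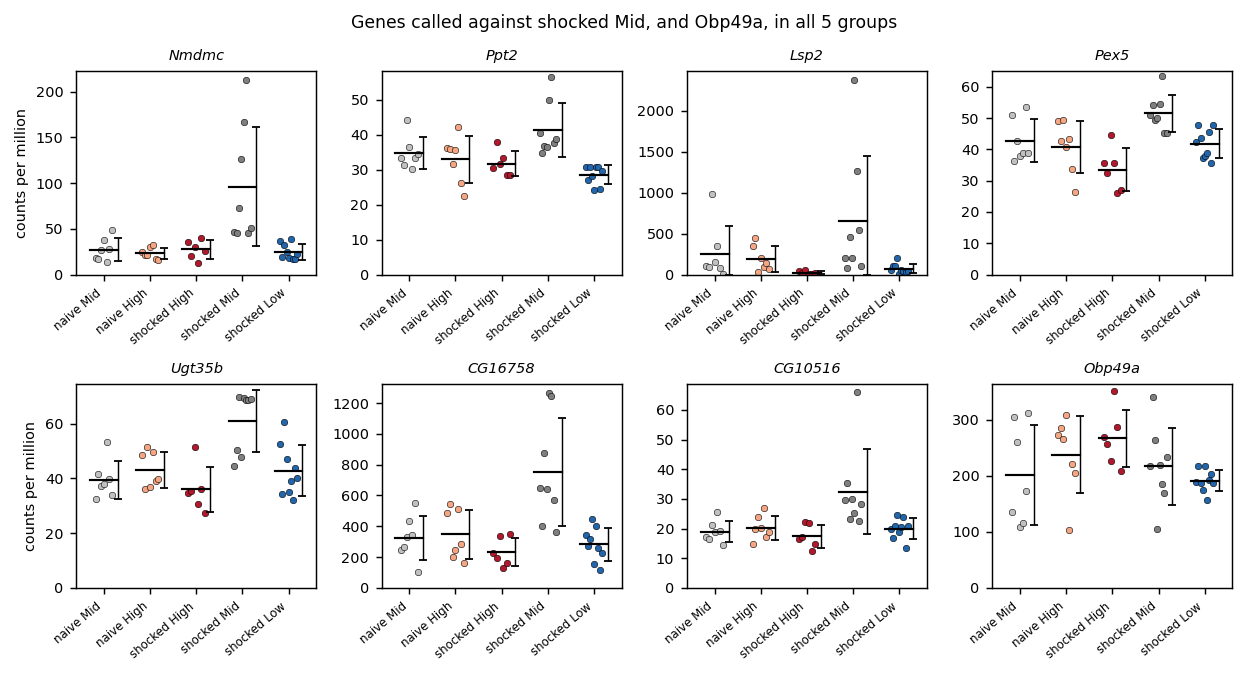
Level in CPM (vertical axis, from 0) of 7 genes called lower in shocked Low or shocked High than in shocked Mid heads, and of Obp49a, in each head of the 5 groups, with the mean and an error bar of 1 SD that stops at 0. The shocked Mid heads lie highest on average for the 7 called genes, for example 95.9 CPM for Nmdmc, while shocked Low and shocked High heads overlap in every panel.

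The medians of several lists lay below shocked Mid in both extremes. They are given without the median over all genes and without a range for leaving out each head. The median log2 fold changes of Low minus Mid and of High minus Mid were -0.78 and -0.79 for the fat body list, -0.53 and -0.62 for serine and folate metabolism, -0.48 and -0.51 for purine metabolism and -0.60 and -1.17 for the antennal list. They were -0.97 and -0.43 for the antimicrobial list and -0.64 and -0.64 for the Turandot list. For cytosolic ribosomal proteins they were -0.19 and -0.26. For pan-neuronal genes they were 0.06 and 0.15. Of all list members, Lsp2, Nmdmc, Ugt35b and Ppt2 passed in at least 1 of these comparisons.

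Spread between heads of 1 class was largest for the Turandot, antimicrobial and antennal lists. The median SD of log2 CPM within a class was 0.25 over all genes, 1.17 for the antimicrobial list, 1.18 for the Turandot list, 1.17 for the antennal list, 0.61 for the fat body list and 0.55 for the haemocyte list. Immune recognition and signalling genes had 0.32 and heat shock genes 0.22. It was 0.14 for oxidative phosphorylation and 0.18 for photoreceptor genes. The antennal and antimicrobial lists, whose medians lay farthest from 0, were thus among the 3 lists with the largest spread.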

How the data were processed

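The authors' steps are in the series' design text. They took total RNA of each single head through oligo dT capture, trimmed the reads, aligned them to dm6, dropped alignments that were not primary or had a mapping quality below 8, and counted reads on exons. The labels' library protocol also calls the assay nuclear RNA-seq. Per the submitters' processing notes the tools were STAR, HTSeq and DESeq2, with no version or strand setting. The deposited counts, which are whole numbers, are raw reads per gene for 17559 genes, per the series' design text. The deposited log2 fold changes and q values (adjusted p-values) are named so per the file headers and are the authors' DESeq2 results, per the design text.

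Here, 2 columns of counts that match no label were not used. Genes were filtered with filterByExpr by group at a minimum count of 10 and scaled by TMM, and all 37 libraries entered 1 quasi-likelihood model with 5 group means (edgeR 4.0.16, R 4.3.3), tested first on simulated counts. P-values were adjusted by Benjamini-Hochberg over all 10272 genes at 0.05. For log2 CPM the prior count was 2. Averaging it over the tested members of a list gave its score. An error written as SE comes from that model, as do 95% intervals. Alternatives were a fit of the Low and High libraries alone, RLE scaling, no filter, DESeq2 1.42.0, limma 3.58.1 with quality weights, a replicate block by the numbers in the titles or in the library names, and leaving out each head. Figures and summaries used Python 3.11.15, pandas 2.3.3, numpy 2.4.6, scipy 1.17.1 and matplotlib 3.10.9.

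The libraries are single heads of 1 labelled batch date, so p-values measure the spread between flies together with that of making each library. The 2 cannot be told apart. The classes compared, the gene lists and the tests were chosen with earlier results of these data known. By rule, the text names the 5 genes of smallest p in either direction and 2 from each list, all given as not passing. Others were chosen after their values were seen, among them Hsp68, Def, TotA, TotC, TotM, Hml, Hr38, sr, Ilp3, Vmat, Obp83a, lush, Orco, Obp49a and the antimicrobial genes. Positions and newer symbols are from the Ensembl annotation in dm6 coordinates.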

Additional observations from a re-analysis of the deposited data

Results flagged for a closer look

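The total counts, 32 list scores and 10 genes were checked in both classes for a head far from the rest of its class. Of these 86 sets of values 5 held such a head, and chance gives about 1 in 20, or 4.3. Scores are mean log2 CPM. In shocked High 3 the score of serine, folate and asparagine metabolism was 7.25, against 6.54 to 6.76 in the other 5 shocked High heads. In the same head the score of purine metabolism was 6.14, against 5.52 to 5.71, and that of the proteasome subunits was 6.37, against 6.02 to 6.12. In shocked Low 3 the score of the nicotinic, GABA and glutamate receptors was 6.42, against 6.62 to 6.79 in the other shocked Low heads. In shocked Low 8 the score of the haemocyte and basement membrane genes was 3.42, against 4.43 to 5.32.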

How the results depend on the processing

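In all 23 alternatives to the reported fit, 0 genes passed in either direction. The smallest adjusted p of any gene was 0.0815, for Cyp4g1 without a filter on low counts, and it was 0.352 to 1.0 when 1 head was left out. The number of genes at an unadjusted p under 0.05 was 452 as reported, 949 without a filter (15893 genes tested), 705 with limma and quality weights, and between 367 (without shocked Low 7) and 733 (without shocked High 3) when 1 head was left out. It was 354 with the Low and High libraries alone, 445 with RLE scaling, 422 with DESeq2 and 606 without both shocked High 2 and shocked High 3, which was added after seeing the data. The cause of these shifts was not tested. Of 1804 fold changes of 79 of the named genes in these alternatives, 1799 kept their sign. Genes named by rule had the smallest p of a list or of a direction in the reported fit, which favours a kept sign. The count is therefore no measure for other genes. Diedel went from -0.96 to 0.40 with limma and quality weights, and Nmdmc from -0.13 to 0.062 with the replicate block. The replicate block gave 591 genes at an unadjusted p under 0.05 and 0 that passed. Same-numbered libraries of the 2 classes had correlations of -0.20 to 0.19 over 6 numbers, and 2 of 6 correlated best with their own number, so the numbers of the titles do not pair the heads by this measure. The library names carry other numbers for some shocked Low heads. By those, 5 numbers were shared, with correlations of -0.20 to 0.19 and 1 that correlated best with its own. A replicate block by them, added after seeing the data, gave 895 genes at an unadjusted p under 0.05 and 0 that passed (smallest adjusted p 0.0827), and turned Diedel to 0.024, loco from -0.09 to 0.036 and Nmdmc to 0.20. Over these settings the median log2 fold change of all genes lay between -0.0026 and 0.016. Genes below 2 CPM had a median SE of 0.49, and the parts of depth and of spread between heads in it were not tested. Of 32 list medians, 12 changed sign when 1 head was left out.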

Other observations

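Among the genes that varied most within a class, 8 that are on no list were picked after their values were seen. CG8329 lay at 790, 532, 651, 3221, 2331 and 1592 CPM in shocked High 1 to 6. In shocked Low heads it reached 3277 CPM in replicate 9 but was 21.4 CPM in replicate 6 and 127 CPM in replicate 7. CG8343, CG3088, CG9676, CG11211 and CG7829 were likewise lowest in shocked Low 6 and 7, with 28 and 79 CPM for CG8343 and 20.6 and 74.7 CPM for CG3088. CG32523 was at most 0.407 CPM in these 2 heads and up to 85.8 CPM in shocked High heads. CG18673, named CAH5 in the Ensembl annotation, was listed at 0 in 2 shocked High and 3 shocked Low heads and reached 82.4 CPM in shocked Low 9. Between Low and High the log2 fold changes of CG8329, CG8343, CG3088 and CG9676 were -0.25 (SE 0.69), -0.32 (SE 0.66), -0.28 (SE 0.58) and -0.41 (SE 0.79), each smaller than its SE.

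CR41544 was at 347 CPM in shocked High 5 and between 4.19 and 48.4 CPM in the other 14 heads.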
